A study of Homo sapiens with 12 samples.

Results

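The transcripts of glucose use and of the response to hypoxia-inducible factor (HIF) were followed as 39 human genes chosen by symbol, in 5 groups: 4 transporters of glucose and lactate, 17 glycolytic enzymes (both lactate dehydrogenase subunits included), 3 kinases that set the flux through the pathway, 4 HIF subunits and hydroxylases, and 11 other HIF targets. The rule names genes by symbol and uses no measured value, but the symbols were chosen with earlier results of these data known. Of the 39, 38 had a row among the 25141 genes of the count table and 37 passed the filter on low counts. CA9 had no row and was not analysed here, and PFKFB4, the other member without a test, had 3 to 11 counts per library.

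Glucose enters cells through facilitative transporters, is trapped as a phosphate by hexokinase, and is cleaved and oxidised to pyruvate, which lactate dehydrogenase reduces to lactate for export. HIF is a dimer of an oxygen-regulated alpha subunit and a stable beta subunit. While oxygen is present, prolyl hydroxylases of the EGLN family mark the alpha subunit for degradation; in hypoxia it accumulates and induces transporters, most glycolytic enzymes, mitophagy receptors and its own hydroxylases. The alpha subunit is controlled largely as a protein, so the level of its mRNA is no measure of HIF activity.

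The libraries came from HOS, a human osteosarcoma cell line, in 4 groups of 3. CIN85 (gene SH3KBP1) is a scaffold protein of receptor endocytosis. For upCIN85 its full-length form was introduced on a plasmid with a CMV promoter and a mixed population was kept by geneticin selection, while Mock had the same vector without an insert. For siCIN85 HOS cells, for which no plasmid was described, were transfected with siRNAs directed at CIN85, several in 1 mix, and siNeg was given a control siRNA. No group was labelled as kept in low oxygen, so the comparisons ask whether these transcripts differed with the level of CIN85. The study listed a hypoxia gene set among those over-represented in its differing genes of both comparisons. Its enrichment analysis of ranked genes placed that set among those raised in siCIN85. From earlier work, it describes CIN85 as binding EGLN1 (PHD2) and stabilizing HIF-1 alpha, with LDHA, SLC2A1 (GLUT1), CITED2 and VEGF induced. That gene set was not tested here. The study's methods speak of biological replicates for its experiments in general, but the labels do not say that these libraries came from separate cultures, so P-values measure the spread between these libraries, which may be technical. In such bulk RNA, fewer cells expressing a gene and less of its RNA per cell cannot be told apart. Libraries were made from the 3′ ends of transcripts, where a transcript gives reads irrespective of its length, so levels are given as CPM (counts scaled to the library total, with TMM factors) and were compared between genes without a length correction.

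Total counts per library ranged from 5334731 to 6049458 in the Mock and upCIN85 groups and from 3540641 to 4174860 after siRNA. Replicates of a group differed by 4.72 to 9.6 times the counting noise (chi-square per degree of freedom), most between siNeg replicates 1 and 3 and between upCIN85 replicate 2 and its fellows (8.09 and 9.09), so values without these libraries are given where they change a call. SH3KBP1 lay between 3.88 and 9.77 CPM in siCIN85 against 82.6 to 87.2 in siNeg and fell by 3.51 on the log2 scale (SE 0.21, adjusted p = 5.09e-08). In the libraries labelled upCIN85 it lay between 71 and 90 CPM against 73 to 82.8 in Mock (log2FC 0.07, 95% interval -0.26 to 0.40). Reads from the 3′ end of the gene need not come from a plasmid transcript, so this value does not check the overexpression. The study followed it as CIN85 protein, by western blot of the selected cells. The mesenchymal markers VIM and SPARC were abundant (434 to 642 and 354 to 779 CPM), all 8 mesenchymal markers were tested and together took 0.173% to 0.327% of counts, the epithelial markers took 0.0275% to 0.0377%, mostly KRT18 (group means of 206 to 260 CPM) and EPCAM (28.6 to 52.1 CPM), and the summed blood and endothelial markers took at most 0.000994%. Of the blood markers, PTPRC, CD3E and LYZ had 0 or 1 count in every library and CD68 had 0 to 5, except in siCIN85 with 3 to 15.

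Glycolytic enzymes were among the abundant transcripts, and their levels were much alike in the 4 groups. ENO1, the ubiquitous enolase, had the highest mean of the members in every group, with 1530 ± 75.6 CPM for Mock (SD, n = 3), 1600 ± 37.3 for upCIN85, 1560 ± 73.8 for siNeg and 1490 ± 48.1 for siCIN85. LDHB came next in every group (768 to 911 CPM), and GAPDH, HIF1A, LDHA and PGK1 followed with group means between 526 and 712 CPM. PKM, TPI1 and ALDOA had means between 368 and 493 CPM. In 4 isoenzyme families 1 member was the most abundant in every group: ALDOA (368 to 386 CPM) over ALDOC (1.82 to 3.5), ENO1 over ENO2 (21 to 23.6), PFKP (124 to 134) over PFKM (36.5 to 39.9) and PFKL (30.7 to 36.1), and HK1 (81.4 to 101) over HK2 (27.6 to 40.9). In the annotation used here SENP1 and AC019069.1 overlap PFKM and HK2 on the opposite strand. LRRC23 and AC005726.1 overlap ENO2 and ALDOC on the same strand, so the levels of these minor isoenzymes are less certain. Neighbours in this order often overlapped between libraries: LDHA and HIF1A did in Mock, upCIN85 and siNeg, whereas in siCIN85 all HIF1A values (595 to 711 CPM) lay above all LDHA values (459 to 571 CPM). All members together took 0.819% ± 0.0421 of the Mock counts, 0.833% ± 0.0241 for upCIN85, 0.798% ± 0.0108 for siNeg and 0.77% ± 0.00788 for siCIN85 (SD, n = 3).

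**Figure D1:**
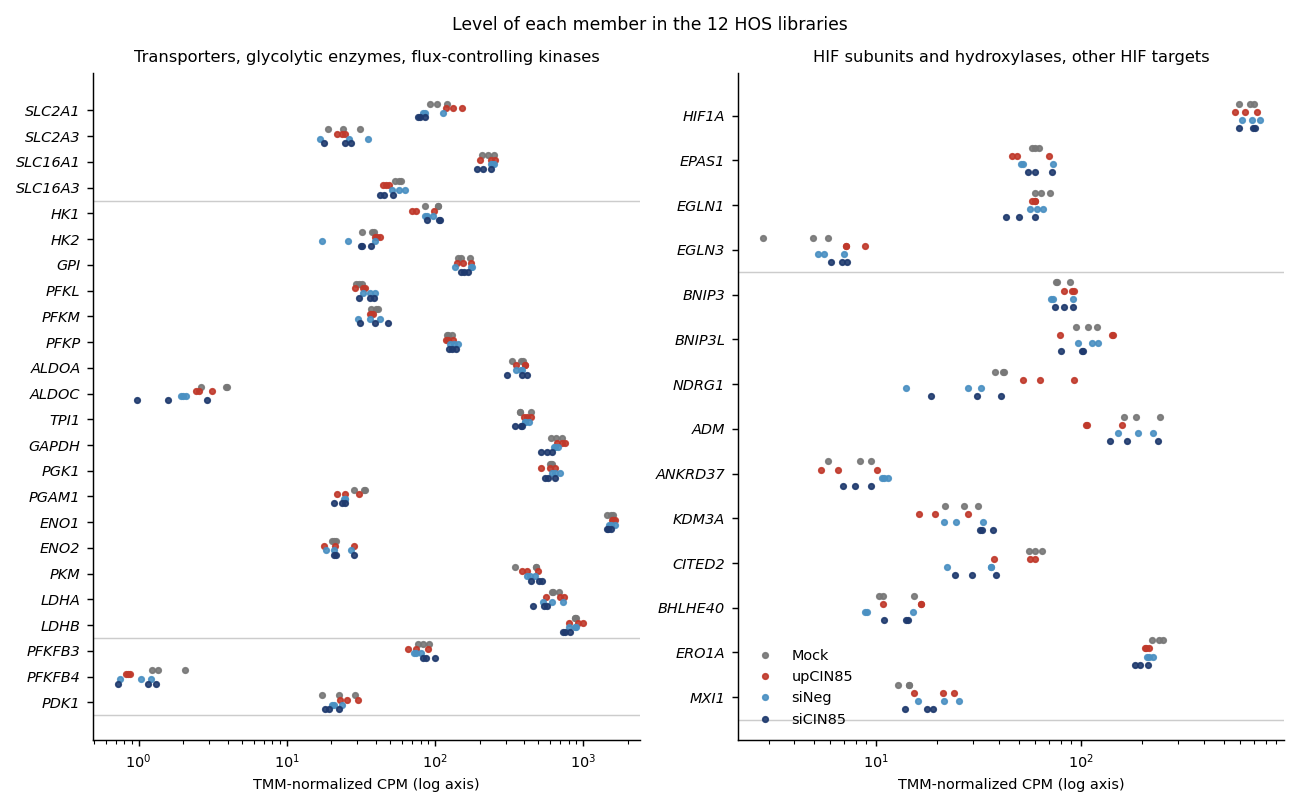
TMM-normalized CPM (log axis) of the 38 members with a row, 1 point per library, coloured by group, with grey lines between the groups of members. The members span from PFKFB4, at 0.728 to 2.07 CPM, to ENO1, at 1450 to 1640 CPM, and for most of them the 4 groups lie on top of each other.

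**Figure D2:**
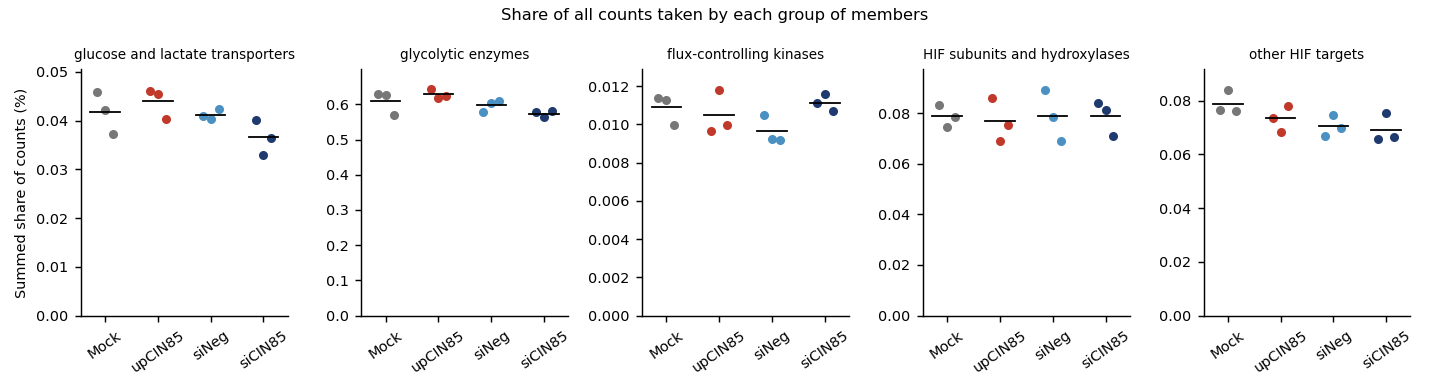
Share of all counts in percent taken by each of the 5 groups of members, 1 point per library in replicate order, with the mean as a line. The glycolytic enzymes took 0.564% to 0.644% of the counts in all 12 libraries and the other HIF targets 0.0657% to 0.084%.

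In upCIN85 versus Mock, 0 of the 37 members tested passed an adjusted p of 0.05 in edgeR's quasi-likelihood test, which called 1.23% of all 12542 genes tested. Without adjustment, 6 members had p below 0.05 (4 higher, 2 lower), against 14.5% of all genes (6.64% higher, 7.85% lower). DESeq2 called 0 members on all 12 libraries, with 2.5% of all genes, and 2, ADM and NDRG1, on the 6 libraries of the comparison, with 2.89%. The members' median log2FC was 0.01, as was that of all genes tested. The libraries of the compared groups did not overlap for 4 members that were higher (EGLN3, NDRG1, MXI1 and, named after its values were seen, HK2) and 3 that were lower (ADM, SLC16A3 and ERO1A), against 20.7% of all genes (9.74% higher, 11% lower). For 26 members, 70.3%, the 95% interval of the difference lay within 1.5-fold in either direction, compared with 53.8% of all genes. The members' intervals were also narrower (median SE 0.1343 against 0.1706), so these shares do not show that the members changed less.

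In siCIN85 versus siNeg, 0 of 37 members passed the same test, which called 1.04% of all genes, and DESeq2 called 0 with 12 and with 6 libraries (2.71% and 2.58% of all genes). GAPDH and SLC16A3 had an unadjusted p below 0.05, both lower, against 15.7% of all genes (7.55% higher, 8.15% lower). The median log2FC was -0.06 for the members and -0.01 for all genes, with 12 members above and 25 below 0. The libraries did not overlap for 1 higher member, PFKFB3, and 3 lower ones, ANKRD37, GAPDH and TPI1, against 20.2% of all genes (9.91% higher, 10.2% lower). The 95% interval lay within 1.5-fold for 27 members, 73%, compared with 48.3% of all genes, again with a smaller median SE for the members (0.1377 against 0.1805).

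**Figure D3:**
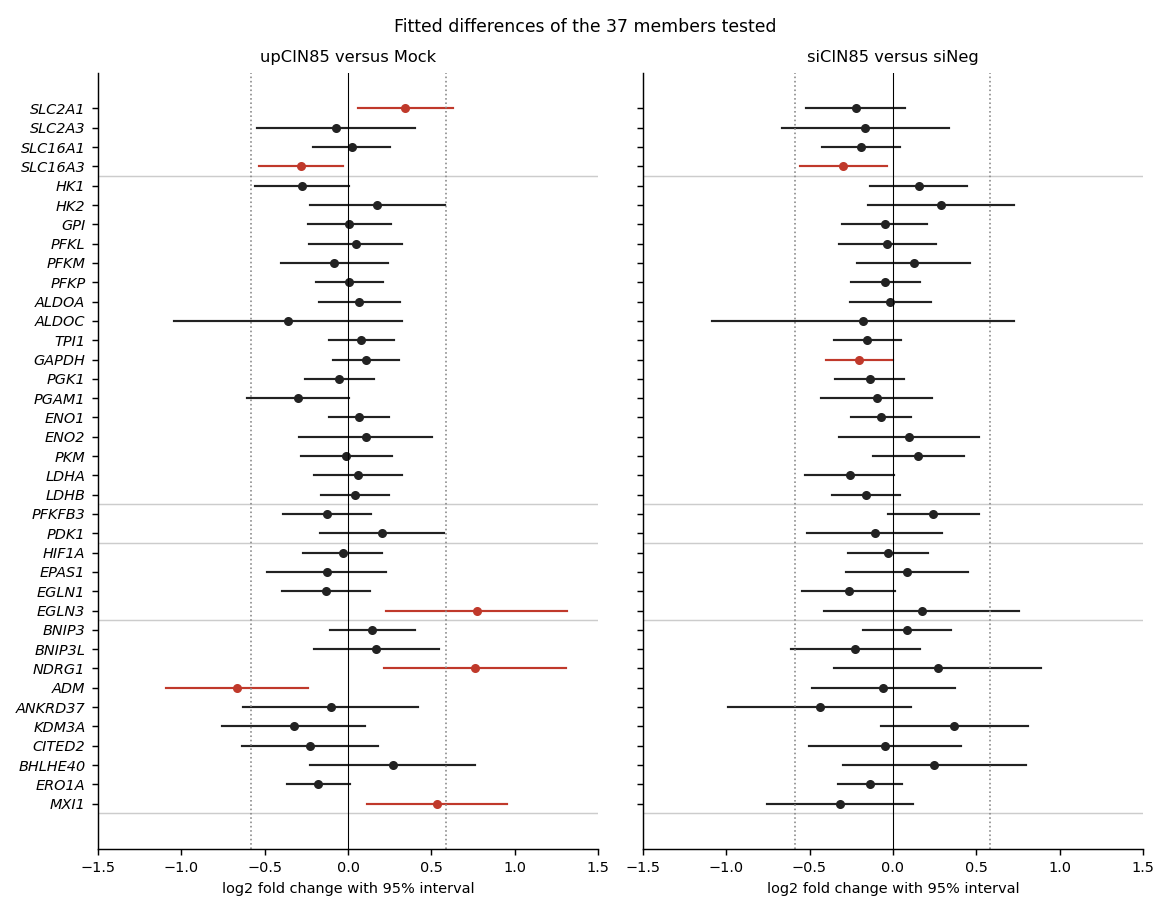
Fitted log2 fold change (points) with its 95% interval (lines) for the 37 members tested, upCIN85 versus Mock on the left and siCIN85 versus siNeg on the right; dotted lines mark 1.5-fold, and red marks the 6 and 2 members whose own interval leaves out 0. None of these passed the adjustment over 12542 genes. The intervals are narrow for the abundant enzymes and wide for ALDOC, EGLN3, NDRG1 and ANKRD37.

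Among the transporters, SLC2A1 (GLUT1), the main glucose importer of most cultured cells and a HIF target, had 121, 104 and 93.1 CPM in Mock and 152, 119 and 132 CPM in upCIN85 replicates 1 to 3. Its upCIN85 values were higher on average, with replicate 2 just below the highest Mock library, and the log2FC of 0.34 (SE 0.13, adjusted p = 0.233) did not pass. The siNeg libraries had 83.5, 85.5 and 114 CPM and the siCIN85 libraries 79.6, 77.5 and 85.3 CPM. These groups overlapped (log2FC -0.22, SE 0.14, adjusted p = 0.456), and siNeg replicate 3 was the highest of the 6. Without that library the log2FC was -0.07.

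SLC16A3 (MCT4), the HIF-inducible lactate exporter, was the lowest transporter relative to the controls in both experiments. It had 57.4, 59.2 and 54.2 CPM in Mock and 46.5, 49.3 and 44.7 CPM in upCIN85, without overlap (log2FC -0.28, SE 0.12, adjusted p = 0.282). After siNeg its values were 51.5, 57.2 and 62.8 CPM and after siCIN85 45.1, 52.1 and 42.5 CPM, where 1 siCIN85 library exceeded the lowest siNeg library (log2FC -0.30, SE 0.12, adjusted p = 0.257). CSNK1D overlaps SLC16A3 on the opposite strand, and with the strand setting of the counting not given in the sources used here, reads of the pair may not have been told apart. SLC2A3 (GLUT3) and SLC16A1 (MCT1) had log2FC values of -0.07 and 0.02 in upCIN85 and of -0.17 and -0.19 in siCIN85. All 4 transporters were thus below 0 in siCIN85 versus siNeg, none past the threshold.

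Of the 17 glycolytic enzymes, 0 passed in edgeR's test or in DESeq2 in either comparison, 0 and 1 (GAPDH) had an unadjusted p below 0.05, and the intervals of 15 lay within 1.5-fold in each. Their log2FC ranged from -0.36 to 0.17 in upCIN85 versus Mock (11 above 0, 6 below) and from -0.26 to 0.29 in siCIN85 versus siNeg (5 above, 12 below). LDHA, the subunit of lactate dehydrogenase that HIF induces, had 683, 625 and 620 CPM in Mock and 749, 563 and 695 CPM in upCIN85. The upCIN85 libraries enclosed those of Mock, replicate 2 being the lowest of the 6 (log2FC 0.06, SE 0.13, adjusted p = 0.879). In siNeg LDHA had 539, 621 and 727 CPM and in siCIN85 459, 548 and 571 CPM, which overlapped (log2FC -0.26, SE 0.13, adjusted p = 0.332). In both knockdown groups replicate 3 was the highest and replicate 1 the lowest.

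HIF binds DNA at a short core, searched here as ACGTG or GCGTG on both strands of the RefSeq promoters of GRCh38.p14 (250 bases before to 50 after a start). Of all 35116 promoters 48.4% held a match, of the 13836 promoters of tested genes 61.4%, and of the 67 promoters of members 70.1%. Among the 35 members with a promoter in that table, 33 held at least 1 match, and EGLN3 and PGAM1 held none. This count takes the best of up to 7 promoters of a gene. It cannot be set against the shares per promoter, and the share per gene over all genes was not computed. The LDHA promoter, shown because LDHA shared the highest number of matches, 6, with BNIP3 and HK2, lies on the plus strand at chr11:18394313-18394612, with matches in capitals (a CACGTG holds a match on each strand).
LDHA: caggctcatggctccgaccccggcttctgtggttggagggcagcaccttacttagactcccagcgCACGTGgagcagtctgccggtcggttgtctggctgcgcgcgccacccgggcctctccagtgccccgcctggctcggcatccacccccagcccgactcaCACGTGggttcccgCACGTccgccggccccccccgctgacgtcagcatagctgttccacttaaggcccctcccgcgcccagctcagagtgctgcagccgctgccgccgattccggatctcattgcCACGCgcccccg
The LDHA transcript, given above, overlapped between the groups in both comparisons.

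GAPDH, which oxidises glyceraldehyde 3-phosphate, is also the gene whose primers served as a qPCR reference in the study. It had 716, 655 and 612 CPM in Mock, 754, 721 and 662 in upCIN85, 638, 648 and 677 in siNeg, and 570, 523 and 613 in siCIN85. The siCIN85 libraries all lay below the siNeg libraries, whereas upCIN85 and Mock overlapped. The log2FC was 0.11 in upCIN85 versus Mock (95% interval -0.09 to 0.31) and -0.20 in siCIN85 versus siNeg (-0.40 to -0.00, adjusted p = 0.313). The primers are shown because they tie the count-based gene to the qPCR product: they match the coding sequence of ENST00000229239 on chromosome 12 of GRCh38, the forward one across the junction of exon 2 (6534849 to 6534861) and exon 3 (6536494 to 6536500, in capitals) and the reverse one in exon 4 (6536732 to 6536751), for a product of 181 bases.
GAPDH forward: tcggagtcaacggATTTGGT
GAPDH reverse: ttcccgttctcagccttgac
The sequencing counts come from the 3′ end of the transcript and not from this product. Named pseudogenes of GAPDH with a row took at most 0.288% of the counts of GAPDH and these copies together.

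TPI1, triose-phosphate isomerase, was measured at 430, 405 and 407 CPM in siNeg and 379, 390 and 348 in siCIN85, without overlap (log2FC -0.15, SE 0.09, adjusted p = 0.45). In Mock it had 443, 378 and 373 CPM and in upCIN85 421, 443 and 397 CPM, which overlapped (log2FC 0.08, adjusted p = 0.755). The remaining enzymes are covered by the ranges above. ALDOC, the minor aldolase, had 4 to 23 counts per library and the widest intervals of the members (-1.04 to 0.32 in upCIN85 versus Mock and -1.09 to 0.73 in siCIN85 versus siNeg).

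Of the flux-controlling kinases, PFKFB3 makes fructose 2,6-bisphosphate, the activator of phosphofructokinase, and PDK1 shuts pyruvate dehydrogenase. PFKFB3 had 80.7, 72.8 and 75 CPM in siNeg and 87.6, 99.5 and 83.7 CPM in siCIN85, higher without overlap (log2FC 0.24, SE 0.13, adjusted p = 0.37). In Mock it had 83.5, 91.8 and 76.8 CPM and in upCIN85 65.7, 90 and 75.1 CPM, which overlapped (log2FC -0.13, adjusted p = 0.698). PDK1 had a log2FC of 0.20 in upCIN85 and -0.11 in siCIN85, also without passing.

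HIF1A, the widely expressed alpha subunit, had 705, 594 and 668 CPM in Mock, 724, 564 and 634 in upCIN85, 747, 683 and 611 in siNeg, and 693, 711 and 595 in siCIN85. All 4 groups overlapped, with a log2FC of -0.03 in each comparison (95% interval -0.27 to 0.21 in both). EPAS1, which encodes HIF-2 alpha, was far less abundant than HIF1A, with means of 55.2 to 62.5 CPM, and its log2FC was -0.13 in upCIN85 and 0.08 in siCIN85.

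EGLN1 (PHD2), the main oxygen-sensing hydroxylase, had 63.8, 71 and 60 CPM in Mock and 57.9, 60.1 and 59.7 in upCIN85 (log2FC -0.13, SE 0.13, adjusted p = 0.684). In siNeg it had 65.5, 61.1 and 56.5 CPM and in siCIN85 43.2, 59.6 and 49.9, where replicate 2 overlapped siNeg (log2FC -0.27, SE 0.13, adjusted p = 0.337). EGLN3 (PHD3), the more strongly HIF-induced hydroxylase, was scarce: 5.83, 4.92 and 2.81 CPM in Mock (31, 29 and 16 counts) and 7.17, 8.82 and 7.14 CPM in upCIN85 (41, 54 and 42 counts). All upCIN85 libraries lay above all Mock libraries, and the log2FC of 0.77 (SE 0.26, 95% interval 0.23 to 1.32) was the highest of the members in that comparison, with an adjusted p of 0.149. The siNeg libraries had 7, 5.62 and 5.21 CPM and the siCIN85 libraries 6.07, 7.23 and 6.87, which overlapped (log2FC 0.17, adjusted p = 0.807). In the annotation used here EGLN3 overlaps SPTSSA on the same strand, a gene with 5001 counts to the 360 of EGLN3, so these low counts are uncertain. Its RefSeq promoter, on the minus strand at chr14:33951025-33951324, is shown because it held neither core in this window.
EGLN3: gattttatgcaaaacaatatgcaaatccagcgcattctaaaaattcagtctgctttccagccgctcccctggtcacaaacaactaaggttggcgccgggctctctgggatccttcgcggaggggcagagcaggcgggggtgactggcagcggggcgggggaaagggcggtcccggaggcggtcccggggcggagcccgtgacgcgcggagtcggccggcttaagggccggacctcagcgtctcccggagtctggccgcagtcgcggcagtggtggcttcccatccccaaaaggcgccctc

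Of the 5 groups of members, the other HIF targets had the widest range of log2FC in upCIN85 versus Mock (-0.67 to 0.76). The intervals of 3 of the 10 tested lay within 1.5-fold there, against 53.8% of all genes. Their intervals were also wider (median SE 0.2005 against 0.1706 for all genes), so this count reflects precision as well. NDRG1, a stress- and hypoxia-induced growth suppressor, had 42, 42.4 and 38.1 CPM in Mock and 63.1, 52.3 and 92.5 CPM in upCIN85. Every upCIN85 library exceeded every Mock library, but upCIN85 replicates 2 and 3 themselves lay far apart (log2FC 0.76, SE 0.26, adjusted p = 0.157). After siNeg its values were 14, 32.7 and 28.1 CPM and after siCIN85 18.7, 31.2 and 40.7 CPM. These overlapped, with replicate 1 the lowest of each group (log2FC 0.27, SE 0.29, adjusted p = 0.697).

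MXI1, a MAX partner that opposes MYC, had 14.5, 14.6 and 12.8 CPM in Mock and 21.3, 15.4 and 24 CPM in upCIN85. The groups did not overlap, upCIN85 replicate 2 being the closest to Mock (log2FC 0.53, SE 0.20, adjusted p = 0.208; 0.70 without that library, adjusted p = 0.0767, the lowest of its alternatives, which reached 0.54). In siNeg it had 25.5, 21.5 and 16.1 CPM and in siCIN85 17.7, 13.9 and 19 CPM, with overlap (log2FC -0.32, SE 0.21, adjusted p = 0.481).

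ADM, which encodes the vasodilator peptide adrenomedullin and is a strong HIF target, lay below Mock in upCIN85. It had 163, 243 and 186 CPM in Mock and 106, 160 and 107 CPM in upCIN85. The highest upCIN85 library lay just under the lowest Mock library, and replicate 2 was the highest in both groups (log2FC -0.67, SE 0.20, 95% interval -1.10 to -0.24, adjusted p = 0.109). The siNeg libraries had 153, 225 and 190 CPM and the siCIN85 libraries 169, 239 and 139 CPM, which overlapped (log2FC -0.06, SE 0.20, adjusted p = 0.924). Its promoter, on the plus strand at chr11:10304823-10305122, held 1 match (capitals) and is shown as a further example beside that of EGLN3. Whether matches go with the direction of a difference was not tested.
ADM: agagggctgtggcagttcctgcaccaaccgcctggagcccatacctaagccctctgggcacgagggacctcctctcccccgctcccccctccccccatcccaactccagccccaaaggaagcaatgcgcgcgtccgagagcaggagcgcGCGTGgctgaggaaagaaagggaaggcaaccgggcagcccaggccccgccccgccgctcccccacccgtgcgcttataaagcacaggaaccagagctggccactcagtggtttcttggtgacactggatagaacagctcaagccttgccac
Whether ADM and NDRG1 passed depended on the setting. Without upCIN85 replicate 2, ADM passed (log2FC -0.89, adjusted p = 0.0382) as the sole member, with 2.07% of all genes, and both passed when the replicate number entered as a block in the knockdown libraries, which share the estimate of the spread (adjusted p = 0.0255 for ADM and 0.0165 for NDRG1, with 4.35% of all genes called). Over all alternatives the adjusted p ranged from 8.38e-06 to 0.411 for ADM and from 0.000148 to 0.528 for NDRG1.

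ERO1A, an oxidase of the endoplasmic reticulum, had 241, 251 and 222 CPM in Mock and 215, 208 and 207 CPM in upCIN85, lower without overlap (log2FC -0.18, SE 0.09, adjusted p = 0.374). After siNeg its values were 226, 210 and 216 CPM and after siCIN85 185, 214 and 195 CPM, with overlap (log2FC -0.14, adjusted p = 0.488). ANKRD37, an ankyrin-repeat protein induced by HIF, had 11, 11.5 and 10.7 CPM in siNeg and 9.46, 6.94 and 7.92 CPM in siCIN85. It was lower without overlap (log2FC -0.44, SE 0.26, adjusted p = 0.427), at 24 to 60 counts per library over all groups, and UFSP2 overlaps it on the opposite strand. In Mock it had 5.83, 9.51 and 8.42 CPM and in upCIN85 5.42, 6.54 and 10.2 (log2FC -0.10, adjusted p = 0.892).

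CITED2, which competes with HIF for the coactivator p300, had 56.1, 59.8 and 64.5 CPM in Mock and 56.8, 37.7 and 59.7 CPM in upCIN85. Of the upCIN85 libraries replicate 2 alone lay below the Mock range (log2FC -0.23, SE 0.19, adjusted p = 0.642; -0.05 without it). In siNeg CITED2 had 22.2, 36.4 and 36.5 CPM and in siCIN85 29.6, 38.5 and 24.3 CPM, with full overlap (log2FC -0.05, SE 0.22, adjusted p = 0.944). BNIP3 and BNIP3L, mitophagy receptors, had log2FC values of 0.14 and 0.17 in upCIN85 and of 0.08 and -0.22 in siCIN85. Named pseudogenes took 5.83% to 9.3% of the reads assigned to BNIP3 and these copies, so its counts are uncertain to that extent. KDM3A, a histone demethylase, and BHLHE40, a transcriptional repressor, had log2FC values of -0.33 and 0.27 in upCIN85 and of 0.37 and 0.25 in siCIN85.

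**Figure D4:**
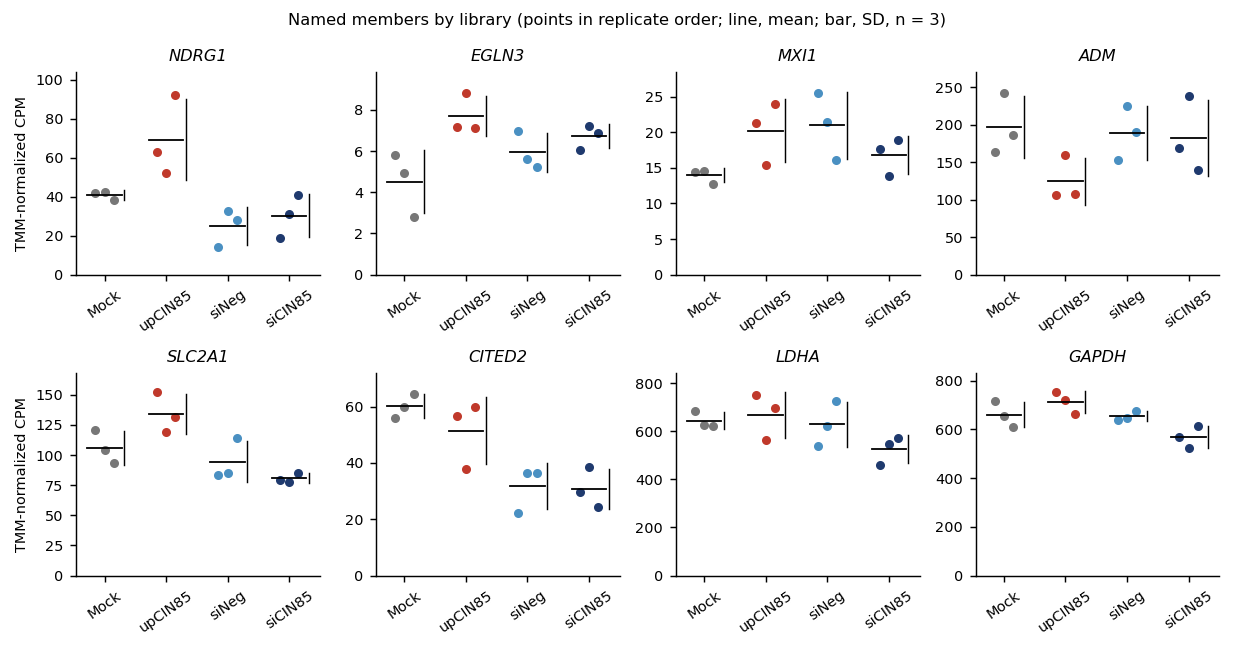
TMM-normalized CPM of 8 named members in the 12 libraries on linear axes from 0 (points in replicate order; horizontal line, mean; vertical bar, SD, n = 3). NDRG1, EGLN3 and MXI1 lie above Mock in all upCIN85 libraries and ADM below it, CITED2 lies lower in both siRNA groups than in Mock, and LDHA and GAPDH stay between 459 and 754 CPM in every library.

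The effects of the 2 experiments were compared directly as the difference of the 2 log2FC values, and 0 of 37 members passed, against 0.973% of all genes. DESeq2 on 12 libraries called 0, with 2% of all genes. With a replicate block in both experiments ADM, KDM3A and SLC2A1 passed in edgeR, when 7.32% of all genes did. In the fit without blocks 6 had an unadjusted p below 0.05, 3 higher and 3 lower (14.5% of all genes, 6.94% and 7.56%). MXI1 (0.85, SE 0.29, adjusted p = 0.173), SLC2A1 (0.57, SE 0.19, adjusted p = 0.178) and GAPDH (0.31, SE 0.13, adjusted p = 0.294) were higher in the overexpression than in the knockdown comparison. ADM (-0.61), HK1 (-0.43) and KDM3A (-0.69), the last 2 named after their values were seen, were lower.

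Between the control groups, siNeg versus Mock, 0 of 37 members passed, against 0.526% of all genes, and 5 had an unadjusted p below 0.05, 1 higher and 4 lower (12.4% of all genes, 6.77% and 5.67%). The libraries did not overlap for 4 higher and 4 lower members (19.4% of all genes, 9.48% and 9.94%). CITED2 was the nearest: every siNeg library lay below every Mock library (log2FC -0.92, SE 0.20, 95% interval -1.36 to -0.49, adjusted p = 0.0516). DESeq2 called this member alone with 12 libraries (adjusted p = 0.00334, with 1.66% of all genes) and with 6 (1.68%), and edgeR called it without siNeg replicate 3 (log2FC -1.03, adjusted p = 0.0409, with 1.02%). Over all alternatives its adjusted p ranged from 1.15e-06 to 0.184. The other 4 were NDRG1 (-0.71) and, named after their values were seen, ALDOC (-0.79) and PGAM1 (-0.37), all lower, and MXI1 (0.59), which was higher. These groups differ in plasmid, selection and siRNA at once, which cannot be told apart. All 28 mitochondrial genes tested had a log2FC above 0 in the same comparison (median 0.45, 1 past the threshold), with a mitochondrial share of counts of 3.52% to 5.38% in Mock and 4.36% to 7.53% in siNeg; its part in the values of the members was not tested.

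Other genes of these pathways were taken from 3 further lists. Of 28 further HIF-induced genes tested, 2 rose in upCIN85 versus Mock and 0 fell, when 1.23% of all genes were called. Without adjustment 8 of the 28 had p below 0.05, 6 higher and 2 lower (14.5% of all genes), and the libraries of 3 higher and 2 lower genes did not overlap (20.7%). ZNF395, a transcriptional regulator induced in hypoxia, had 25.4, 20.4 and 20.5 CPM in Mock and 47.2, 29.6 and 56.6 in upCIN85, without overlap (log2FC 1.01, SE 0.21, adjusted p = 0.0246). AK4, a mitochondrial adenylate kinase, had 38.6, 27.2 and 24.7 CPM in Mock and 76.8, 34.8 and 67.7 in upCIN85, where replicate 2 overlapped Mock (log2FC 0.99, SE 0.24). Its adjusted p of 0.04996 is at the threshold itself. Both calls held without upCIN85 replicate 2 (log2FC 1.23 and 1.26) and without Mock replicate 1, and neither held without any other of the 6 libraries (log2FC 0.79 to 0.96 with an adjusted p of 0.0753 to 0.164 for ZNF395, and 0.76 to 0.91 with 0.163 to 0.222 for AK4).

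The median of that list was -0.07 in upCIN85 versus Mock and -0.16 in siCIN85 versus siNeg, against 0.01 and -0.01 for all genes tested, with 11 and 9 of its genes above 0. DESeq2 on 12 libraries called AK4, ZNF395 and VEGFA in the first comparison and ANGPTL4, P4HA1 and PLOD2 in the second, of which VEGFA, P4HA1 and PLOD2 are named after their values were seen. In edgeR these missed the threshold: VEGFA, the angiogenic growth factor, had a log2FC of 0.81 (adjusted p = 0.0667, libraries not overlapping), and the collagen-modifying P4HA1 and PLOD2 had -0.42 (adjusted p = 0.0833) and -0.47 (adjusted p = 0.0749), also without overlap. In siCIN85 versus siNeg 1 of the 28 rose in edgeR's test and 0 fell, when 1.04% of all genes were called. Without adjustment 11 of the 28 had p below 0.05, 4 higher and 7 lower (15.7% of all genes), and the libraries of 4 higher and 8 lower genes did not overlap (20.2%). The gene that rose was ANGPTL4, a secreted inhibitor of lipoprotein lipase (log2FC 3.48, SE 0.61, adjusted p = 0.0136). It had 7, 2 and 4 counts in siNeg and 48, 25 and 69 in siCIN85, against 0 to 3 in Mock and 2 to 19 in upCIN85. It passed the filter on low counts through the siCIN85 libraries alone, so its call depends on the group in which it was high. Without siNeg replicate 2, siCIN85 replicate 1 or siCIN85 replicate 3 its adjusted p was above the threshold (0.0681 to 0.0797). In siNeg versus Mock WSB1, named after its values were seen, rose (log2FC 0.45, SE 0.09, adjusted p = 0.0365).

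Of 11 tested genes of the HIF complex and its degradation, 0 passed in edgeR's test or in DESeq2 in either main comparison, with 3 and 2 at an unadjusted p below 0.05 (14.5% and 15.7% of all genes). CUL2 was the lowest and RBX1 the highest in upCIN85 versus Mock (log2FC -0.29 and 0.42), both subunits of the VHL ubiquitin ligase. In siCIN85 versus siNeg RBX1 was the lowest (-0.32) and HIF1AN, the asparagine hydroxylase that restrains HIF, the highest (0.30). Of 19 tested genes of the remaining glycolytic, pyruvate and pentose phosphate steps, 0 passed in either tool, with 3 and 2 at an unadjusted p below 0.05, against the same shares of all genes. The extremes were PDK3 (-0.55) and HKDC1 (0.55) in upCIN85 versus Mock, and BPGM (-0.46) and PFKFB2 (0.43) in siCIN85 versus siNeg.

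Markers of cell types were followed in the same comparisons. Of the 8 mesenchymal markers 5 were above 0 and 3 below in upCIN85 versus Mock. Without adjustment 5 had p below 0.05 in edgeR, 3 higher and 2 lower (14.5% of all genes). The collagen gene COL1A2 and the alkaline phosphatase gene ALPL rose (log2FC 1.35 and 1.76, adjusted p = 0.0439 and 0.034 in edgeR, neither called by DESeq2). The COL1A2 libraries overlapped (62.9 to 212 CPM in upCIN85, 41.9 to 84.8 in Mock). ALPL was scarce, with 5 to 6 counts in Mock, 16 to 23 in upCIN85, 0 to 2 in siNeg and 2 to 4 in siCIN85. It passed the filter on low counts through the upCIN85 libraries alone, so its call depends on the group in which it was high. In that test edgeR called 1.23% of all genes. CDH2 and SPARC were lower without overlap (-0.47 and -0.35, adjusted p = 0.0848 and 0.330 in edgeR), and DESeq2 called CDH2 on 12 libraries and both on 6 (2.5% and 2.89% of all genes). The summed markers took 0.236% to 0.288% of counts in Mock and 0.246% to 0.327% in upCIN85. In siCIN85 versus siNeg 7 of the 8 were below 0 and 0 passed in edgeR, which called 1.04% of all genes. Without adjustment 5 had p below 0.05, 1 higher and 4 lower (15.7% of all genes). The higher one was ALPL (log2FC 1.705, adjusted p = 0.282 in edgeR, libraries not overlapping), at the low counts given above. COL1A1 and COL1A2 had a log2FC of -0.71 and -1.26 (adjusted p = 0.0903 and 0.101), and DESeq2 called COL1A1 on 12 libraries and both on 6 (2.71% and 2.58% of all genes). Their summed share was 0.231% to 0.304% in siNeg and 0.173% to 0.242% in siCIN85. Of the 5 epithelial markers tested 0 passed in either tool in these 2 comparisons. In upCIN85 versus Mock 4 had an unadjusted p below 0.05 (CDH1, CDH3 and EPCAM higher, KRT18 lower), against 14.5% of all genes. In siCIN85 versus siNeg 2 did (CDH3 and ELF3, both lower), against 15.7% of all genes. For the difference of both effects edgeR called 2 of the 8 mesenchymal markers and 1 of the 5 epithelial ones, with 0.973% of all genes. These were COL1A1 (1.27, adjusted p = 0.0381), COL1A2 (2.61, adjusted p = 0.0151) and CDH3 (2.52, adjusted p = 0.0384), all higher. The part of these markers in the values of the members was not tested.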

How the data were processed

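Gene-level read counts of 12 libraries of HOS cells were analysed. The counts were deposited by the authors without normalization. According to the submitters' processing notes, tools included cutadapt 4.3, STAR 2.7.3a and featureCounts (Subread 2.0) with GRCh38; whether molecular identifiers were collapsed, the strand setting and the annotation are not given in the sources used here. Gene names and positions came from GENCODE release 29, with no match for 95 genes. Without known collapsing, counts may hold PCR copies, which would widen the spread of low genes.

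Groups follow the sample labels. Counts were tested in R 4.3.3 with edgeR 4.0.16: filterByExpr (minimum count 10, minimum total 15) kept 12542 genes, TMM factors were used, and a quasi-likelihood model with a mean for each group was fitted to all 12 libraries (8 residual degrees of freedom). P-values are two-sided and Benjamini-Hochberg adjusted over all genes tested, with a threshold of 0.05. SE was taken as log2FC (absolute) over the root of the F statistic, and 95% intervals use 8 residual plus 9.14 prior degrees of freedom. With 3 against 3 libraries, the smallest p of an exact permutation test is 0.1. Alternatives were 6 libraries, RLE or library size alone, other filters, replicate blocks, each library left out in turn, and DESeq2 1.42.0. Scripts were tested on simulated data. In the knockdown, deviations from the group mean correlated between libraries of the same label number (r = 0.353, 0.269 and 0.446). Each exceeded the 0.1 set for a pairing, so these numbers may pair the libraries, which the labels do not state. The main fit of group means leaves this possible pairing out, and a replicate block is among the alternatives.

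Members and further lists were chosen with earlier results of these data known. Values per library are given for members past the threshold, for the 3 highest and 3 lowest non-overlapping members in each main comparison, and for SLC2A1, LDHA, CITED2, EGLN1, HIF1A and GAPDH. CA9 was to be given too but had no row. In the further lists, genes past the threshold or else the extremes are named. Promoter sequences are from RefSeq (35 members matched); primer sequences are from the study's supplement.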

Additional observations from a re-analysis of the deposited data

How the results depend on the processing

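In siCIN85 versus siNeg 0 members passed under every alternative fitted. In upCIN85 versus Mock 1 passed with only its 6 libraries (NDRG1), 2 without a filter, with a replicate block in the knockdown only and with DESeq2 on 6 libraries (each time ADM and NDRG1), and 0 with the other scalings, the stricter filter and DESeq2 on 12 libraries. With a replicate block in both experiments 4 passed (ADM, EGLN3, NDRG1 and SLC2A1), when 8.25% of all genes did; same-numbered Mock and upCIN85 libraries correlated at 0.326, 0.227 and 0.0989, the third below the 0.1 set for a pairing, although each correlated best with its own number, so whether these numbers pair the libraries is not settled. In siNeg versus Mock CITED2 passed with only its 6 libraries, with library size alone and with DESeq2 (1 member each), and 2 passed without a filter (CITED2 and NDRG1); a block within each experiment could not be used there, since it leaves the spread between blocks out of the error. For the difference of both effects 1 passed without a filter (ADM) and 3 with a replicate block in both experiments (ADM, KDM3A and SLC2A1). The block changed no other call of a member. With each library left out in turn, 0 to 1 members passed in upCIN85 versus Mock and in siNeg versus Mock and 0 in the others. The members' median ranged from -0.0227 to 0.0678 in upCIN85 versus Mock, below 0 without upCIN85 replicate 2 and highest without Mock replicate 1, and from -0.108 to -0.0569 in siCIN85 versus siNeg, lowest without siCIN85 replicate 2. The log2FC of HIF1A in siCIN85 versus siNeg, close to 0, was 0.00654 with library size alone. Over 6 omissions each, ADM (-0.31 to 0.10), CITED2 (-0.25 to 0.0885), HIF1A (-0.11 to 0.0382) and NDRG1 (-0.0227 to 0.53) changed sign in siCIN85 versus siNeg, as did ANKRD37 (-0.41 to 0.0692), HIF1A (-0.13 to 0.0506) and LDHA (-0.0327 to 0.17) in upCIN85 versus Mock. The settings for AK4, ZNF395, ANGPTL4 and for CITED2 between the controls were chosen after seeing the data. AK4 missed the threshold with 6 libraries (adjusted p = 0.0516, or 0.186 with DESeq2), RLE (0.0503), library size alone (0.0513) and the stricter filter (0.0525); ANGPTL4 got no adjusted p from DESeq2 on 6 libraries. The causes were not tested. No scaling moved the median of all genes by more than 0.04 on the log2 scale. Depth limits EGLN3, ANKRD37, ALDOC and PFKFB4, whose counts are low, and outside the members ANGPTL4 and ALPL.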
